A study of Rattus norvegicus with 3 samples.

Results

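The proteasome is the protease that degrades most ubiquitin-tagged proteins, and its subunit genes were compared here between rat induced pluripotent stem (iPS) cells and a mix of adult cells. The genes were found by name in the array files, as every non-control probe whose gene name was Psm followed by a letter from a to g and a number. This gave 48 probes for 40 genes of the 20343 genes tested, and all 40 passed the filter on dim probes. Psmb8 and Psmb9 passed it through the mix RNA alone. The samples came from 1 iPS line, M13. Its cells grew on irradiated mouse embryonic fibroblast feeders in embryonic stem cell medium and were untreated. They were set against mix1, 1 RNA mixture of cultured rat bone marrow cells and cultured primary ear fibroblasts. Total RNA of iPS M13 carried Cy3 and mix1 carried Cy5 on each of 3 two-colour arrays, with no dye swap. The 3 arrays are taken as 3 replicates because the labels call them repeated samples. The labels name no separate cultures. The p-values thus reflect only how far these arrays differ, which may be technical, and mix1 has no spread of its own.

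The proteasome core is a barrel of stacked rings, with alpha subunits (Psma genes) forming the outer rings and the gate and beta subunits (Psmb genes) forming the inner, catalytic rings. A regulatory particle binds the ends of the barrel. Its ATPases (Psmc genes) unfold substrates, and its non-ATPase subunits (Psmd genes) bind and remove ubiquitin chains. Psmb5, Psmb6 and Psmb7 carry the protease sites in most cells. In immune cells and in cells exposed to interferon-gamma they are replaced by Psmb8, Psmb9 and Psmb10, which form the immunoproteasome. The activator subunits Psme1 and Psme2 are induced by interferon-gamma too. Peptides made by these particles are carried by the Tap1 and Tap2 transporter and loaded on major histocompatibility complex (MHC) class I molecules.

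Promoter sequences are shown for 5 genes because the largest differences among the proteasome genes lie in this interferon-inducible set. Each window runs from 150 bases before the annotated transcript start to 30 bases after it, 5′ to 3′ on the gene's strand, from RefSeq, build GRCr8. Capitals mark matches to GAAA, any 2 bases, then GAAA, the core of the interferon-stimulated response element, on either strand. The Psmb8 window is chr20:4657002-4657181, minus strand, the Psmb9 window is chr20:4668850-4669029, plus strand, and the Tap1 window is chr20:4668514-4668693, minus strand. The Psmb10 window is chr19:50743263-50743442, minus strand, and the Psme2 window is chr15:33052722-33052901, minus strand.
Psmb8: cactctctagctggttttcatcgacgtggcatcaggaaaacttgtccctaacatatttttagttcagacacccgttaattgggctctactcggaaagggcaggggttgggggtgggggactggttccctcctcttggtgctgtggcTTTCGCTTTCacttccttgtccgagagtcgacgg
Psmb9: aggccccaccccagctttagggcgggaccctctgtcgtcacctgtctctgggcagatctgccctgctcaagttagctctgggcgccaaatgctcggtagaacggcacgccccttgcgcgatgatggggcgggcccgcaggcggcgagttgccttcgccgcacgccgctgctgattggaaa
Psmb10: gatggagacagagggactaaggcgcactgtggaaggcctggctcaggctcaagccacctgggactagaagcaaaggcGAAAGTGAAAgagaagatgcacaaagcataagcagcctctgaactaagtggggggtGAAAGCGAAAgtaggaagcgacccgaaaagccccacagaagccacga
Psme2: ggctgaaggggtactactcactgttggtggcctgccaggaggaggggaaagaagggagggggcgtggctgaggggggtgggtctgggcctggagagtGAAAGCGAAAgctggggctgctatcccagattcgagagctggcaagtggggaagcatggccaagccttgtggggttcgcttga
Tap1: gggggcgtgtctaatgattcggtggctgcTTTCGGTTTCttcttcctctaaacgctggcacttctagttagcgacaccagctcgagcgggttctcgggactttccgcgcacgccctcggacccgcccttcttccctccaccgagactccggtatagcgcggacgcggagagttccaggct

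Over the full windows of 250 bases before to 50 after the start, this motif was present in 6 of the 37 proteasome genes with a RefSeq window, or 16.2%, against 3.92% of all 33469 windows. The 6 genes were Psmb8, Psmb10, Psme2, Psma4, Psmb3 and Psmd7. The Psmb8 match lay across the start, and the Psme2 match began 53 bases before it. Psmb10 held 2 matches, beginning 73 and 17 bases before its start. No match was present in these letters of Psmb9. Psmb9 and Tap1 are neighbours on chromosome 20 and face away from each other, with 457 bases between their starts, and the Tap1 match lay 112 bases from the Tap1 start and 336 bases from the Psmb9 start. Psmb8 lies on the other side of Tap1 and is followed by Tap2, in the RefSeq gene order. A second interferon motif, TTCNNNGAA, was present in 4 of the 37 proteasome windows (10.8%) and in 8.87% of all windows. The motif TGACNNNGC, the core of the element bound by Nfe2l1 and Nfe2l2, was present in 8 of 37 (21.6%) and in 12.1% of all. CCAAT was present in 19 of 37 (51.4%) and in 37.5% of all. All 4 motifs were searched on both strands, with overlapping matches counted, and a match is only a match of letters.

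Probes of 60 bases are shown for Psmb8 and Psmb9, the members with the lowest ratios, for their constitutive counterparts Psmb5 and Psmb6, and for Psmd6, the member with the highest ratio, since each of these ratios rests on 1 such stretch. The Psmb8 probe lies at chr20:4788207-4788266, minus strand, and the Psmb9 probe at chr20:4806568-4806627, plus strand. The Psmb5 probe lies at chr15:32705834-32705893, minus strand, the Psmb6 probe at chr10:57384991-57385050, plus strand, and the Psmd6 probe at chr15:12660117-12660290, plus strand, over a genomic span longer than the probe. These positions are on build rn3, per the file headers, and no exon annotation of that build was used here.
Psmb8 probe: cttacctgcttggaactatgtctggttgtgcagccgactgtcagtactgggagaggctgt
Psmb9 probe: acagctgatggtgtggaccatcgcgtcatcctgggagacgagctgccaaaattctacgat
Psmb5 probe: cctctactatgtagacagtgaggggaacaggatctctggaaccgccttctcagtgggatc
Psmb6 probe: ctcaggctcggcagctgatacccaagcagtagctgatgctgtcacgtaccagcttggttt
Psmd6 probe: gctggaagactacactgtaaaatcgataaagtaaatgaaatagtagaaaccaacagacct

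As a check of the samples, all 5 pluripotent or epithelial markers (Pou5f1, Sox2, Cdh1, Epcam and Dnmt3b) were higher in iPS M13. Pou5f1 was the weakest of them there, with a normalized log2 signal of 8.73, 8.72 and 8.89. It was not well above background in mix1 on any array, and its log2 ratio was 1.31. All 6 fibroblast markers and all 5 leukocyte or macrophage markers measured were lower in iPS M13. The summed normalized signal of the fibroblast markers was 10700 to 12923 in iPS M13 and 1619729 to 1846106 in mix1 over the 3 arrays, and in iPS M13 Thy1 was dim (not well above background) on each array. That of the leukocyte or macrophage markers was 2370 to 2514 in iPS M13 and 195946 to 209699 in mix1, with Ptprc, the pan-leukocyte marker CD45, dim in iPS M13 on every array. Ptprc was weak in mix1 too, with a normalized log2 signal of 7.93, 7.68 and 8.15, the lowest of these 5 markers, and its log2 ratio was -1.11. Both marker lists therefore moved with the differences below, and their part in them was not tested. In such RNA mixes, fewer cells of a type and less RNA per cell cannot be told apart.

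Most proteasome genes had similar signals in both RNAs. Ratios are iPS M13 over mix1 on the log2 scale. A gene was called where the mean of its 3 ratios was at least 1 in size (2-fold) with a limma adjusted p under 0.05. Of the 40 genes, 2 were higher (5.0%), namely Psmd6 and Psma1, and 3 were lower (7.5%), namely Psmb8, Psmb9 and Psme2. Psmb8 and Psmb9, kept through mix1 alone, could hardly be called higher. Over all genes tested, 18.8% were called higher and 25.4% were called lower, so the share of proteasome genes called was below the background in both directions. The median log2 ratio was 0.07 for the proteasome genes and -0.02 for all genes. The interquartile range of the proteasome genes was -0.10 to 0.43, against -1.02 to 0.76 for all genes, and 35 of 40 (87.5%) lay within 2-fold against 55.8% of all genes. The 3 arrays agreed closely, with a median SD of the log2 ratio of 0.02 over the proteasome genes, and every gene had the same sign on all 3 arrays. An adjusted p under 0.05 was thus reached by 37 of the 40, most of them with small ratios.

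How many genes pass depends on how the dyes are balanced. With each array centred on its median in place of loess, 12 proteasome genes were higher and 3 lower, and the median of all genes shifted by 0.60 on the log2 scale. Of all calls, 42.5% were in the higher direction with loess and 67.2% with median centring. Where a sign turns with the setting, the position relative to the median of all genes is given too.

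**Figure D1:**
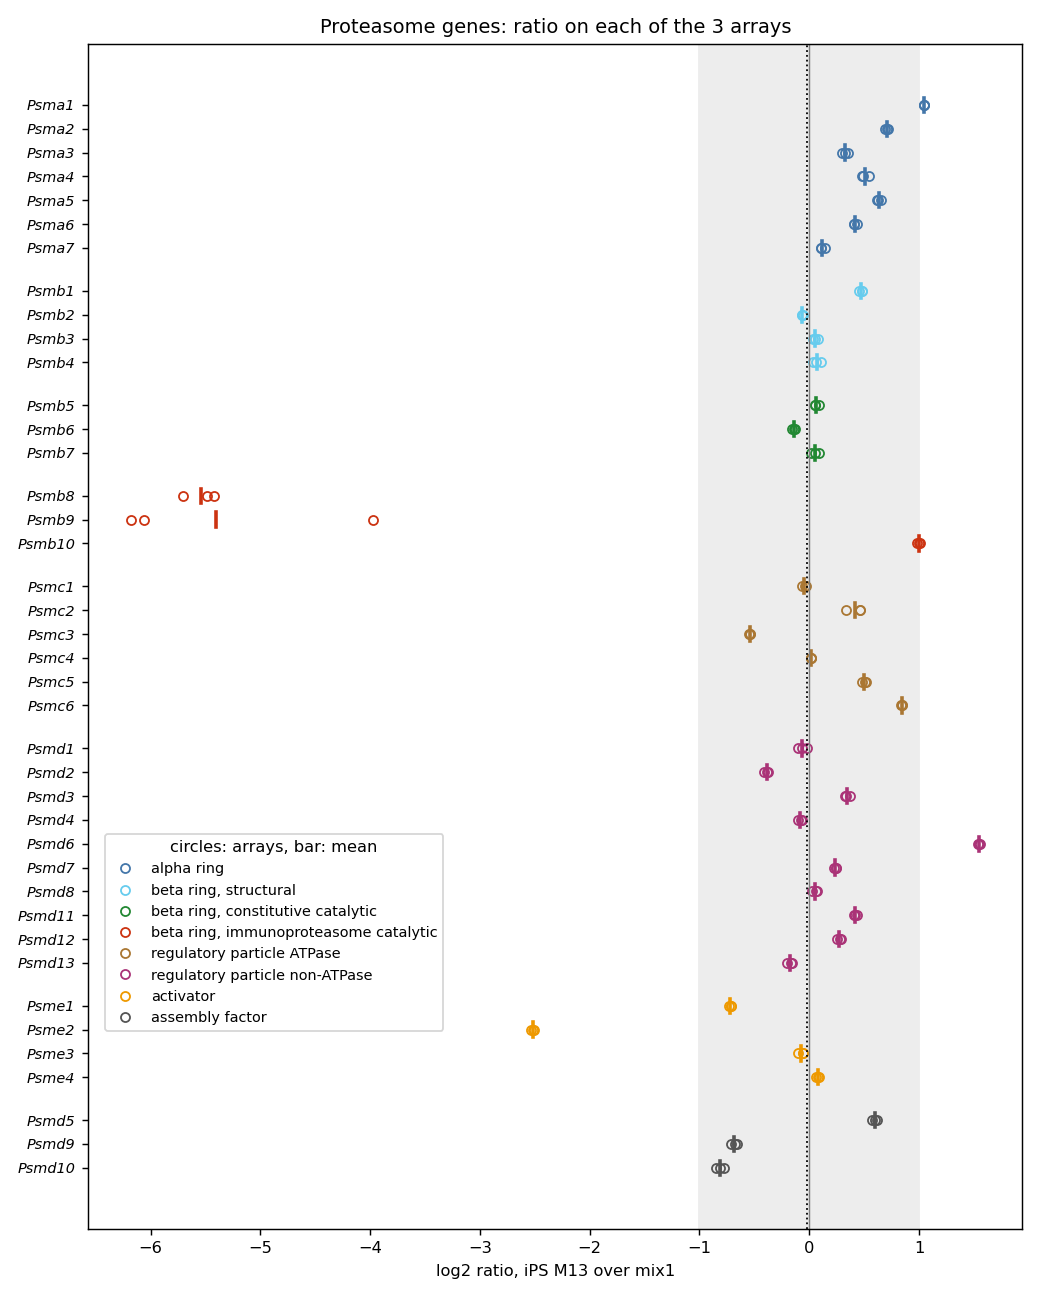
Log2 ratio of iPS M13 over mix1 (x axis) for the 40 proteasome genes, grouped by role down the page, with a circle for each of 3 arrays and a bar at their mean. Grey marks ratios under 2-fold, the dotted line the median of all genes (-0.02), and Psmb8, Psmb9 and Psme2 stand alone to the left of the grey band.

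The 3 immunoproteasome subunits did not share a direction. Psmb8 and Psmb9 were far lower in iPS M13 than in mix1, while Psmb10 had a positive ratio just under 2-fold and was not called.

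Psmb8, the subunit that takes the place of Psmb5, had a normalized log2 signal of 6.64, 6.36 and 6.41 in iPS M13 on replicates 1, 2 and 3, against 12.06, 11.85 and 12.11 in mix1. The groups did not come near each other, and no array had an iPS M13 signal well above background. The raw mean spot signal was 131.8, 120.6 and 122.6 in iPS M13 and 3219, 3563 and 3450 in mix1. Psmb8 was at least 31.0-fold lower in iPS M13, where the bound sets the iPS M13 signal of each array at the lowest signal well above background. The measured log2 ratio was -5.54 ± 0.15 (SD, n = 3 arrays; limma adjusted p = 2.65e-06). Psmb8 passed the filter on dim probes through mix1 alone, and this p rests on an iPS M13 signal near background.

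Psmb9, the subunit that takes the place of Psmb6, had a log2 signal of 9.04, 6.81 and 6.67 in iPS M13, against 13.02, 12.87 and 12.85 in mix1. It was well above background in iPS M13 on replicate 1 only, and that array stood apart from the other two. The log2 ratios were -3.98, -6.06 and -6.18, with a mean of -5.41 ± 1.24 (SD, n = 3 arrays; limma adjusted p = 1.11e-03). Psmb9 too passed the filter through mix1 alone, so the p has the same limit as that of Psmb8. Among 24160 probes with a ratio on all 3 arrays, no other probe was raised on replicate 1 by as much as its 2.15 on the log2 scale.

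The raw iPS M13 signal at the Psmb9 spot was 656.6 on replicate 1, against 154.8 and 139.6 on replicates 2 and 3. The spot lies in the last of the 85 columns of the array. The next spot down that column, Drd1a, a dopamine receptor gene, had a raw iPS M13 signal of 477.4, 99.7 and 92.1 on replicates 1, 2 and 3 and a mix1 signal of 459.8, 83.0 and 80.7. Both spots of the row after that were also brighter on replicate 1, by 2.62 and 3.40 times in iPS M13 and by 2.68 and 1.39 times in mix1. Spots above Psmb9 in that column were at 0.88 to 1.12 times in iPS M13. Whether the same local brightness gave the Psmb9 signal was not tested. Without replicate 1, the log2 ratio of Psmb9 was -6.12, with neither remaining iPS M13 signal well above background, and Psmb9 was at least 54.3-fold lower in iPS M13.

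**Figure D2:**
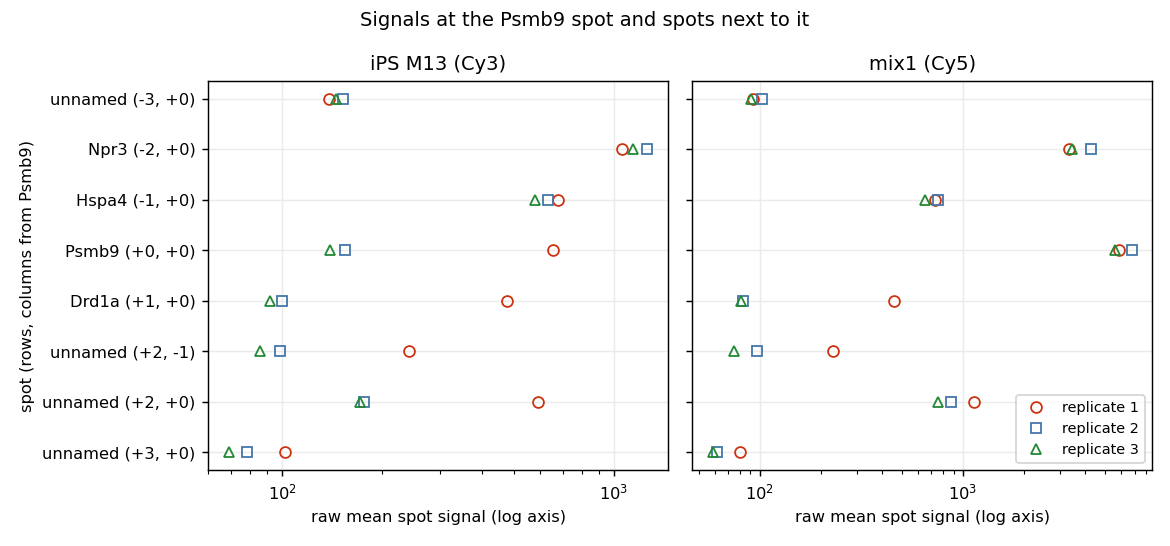
Raw mean spot signal (log x axis) of iPS M13 (left) and mix1 (right) on the 3 arrays, for Psmb9 and spots next to it, with rows and columns counted from Psmb9. On replicate 1 Psmb9, Drd1a and both spots 2 rows below Psmb9 were brighter in iPS M13 than on the other arrays. Drd1a and both spots 2 rows below Psmb9 were brighter in mix1 too.

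Psmb10, the subunit that takes the place of Psmb7, had a log2 signal of 15.37, 15.27 and 15.41 in iPS M13, against 14.36, 14.27 and 14.43 in mix1. Every iPS M13 signal was above every mix1 signal. The log2 ratios were 1.010, 0.996 and 0.982, with a mean of 0.996 ± 0.014 (SD, n = 3 arrays; limma adjusted p = 3.94e-06). This lies just inside 2-fold, so Psmb10 was not called. It was called higher at 1.63 with median centring, 1.58 with no within-array normalization and 1.16 with the scanner's processed signals, and it was at 0.78 when the trend with probe GC content was removed. Relative to the median of all genes it stood 0.78 to 1.05 higher under the settings tried. Its 1 probe lies at chr19:35782592-35782651 (rn3, minus strand).

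The constitutive catalytic subunits showed ratios near 0 with loess. Psmb5, the chymotrypsin-like subunit, had log2 ratios of 0.05, 0.05 and 0.09, with a mean of 0.52 under median centring and 0.51 with GC correction. Psmb6, the caspase-like subunit, had ratios of -0.15, -0.14 and -0.13, and its sign turned under median centring (0.62), no within-array normalization (0.56), the processed signals (0.11), the authors' deposited table (0.11) and GC correction (0.38). Psmb7, the trypsin-like subunit, had ratios of 0.09, 0.05 and 0.01, with a mean of 0.71 under median centring and 0.65 with no within-array normalization. Relative to the median of all genes, Psmb5 stood -0.06 to 0.51, Psmb6 -0.18 to 0.38 and Psmb7 -0.06 to 0.13 over the settings. None of the 3 was called under any setting tried.

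Set against its constitutive counterpart, the log2 ratio of Psmb8 minus that of Psmb5 was -5.47, -5.54 and -5.79 on the 3 arrays, a mean of -5.60 ± 0.17 (SD, n = 3). The difference between Psmb9 and Psmb6 was -3.82, -5.92 and -6.05, or -5.26 ± 1.25 (SD, n = 3), and -5.99 over replicates 2 and 3. The difference between Psmb10 and Psmb7 was 0.92, 0.94 and 0.97, or 0.945 ± 0.023 (SD, n = 3). The differences of the first 2 pairs were negative on every array, and that of the third was positive on every array. The mean of the 3 pairs was -3.31 ± 0.45 (SD, n = 3), and it was between -4.28 and -3.15 under the other settings. The smallest p that an exact sign-flip test over 3 arrays allows is 0.25 (two-sided), and none is given.

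**Figure D3:**
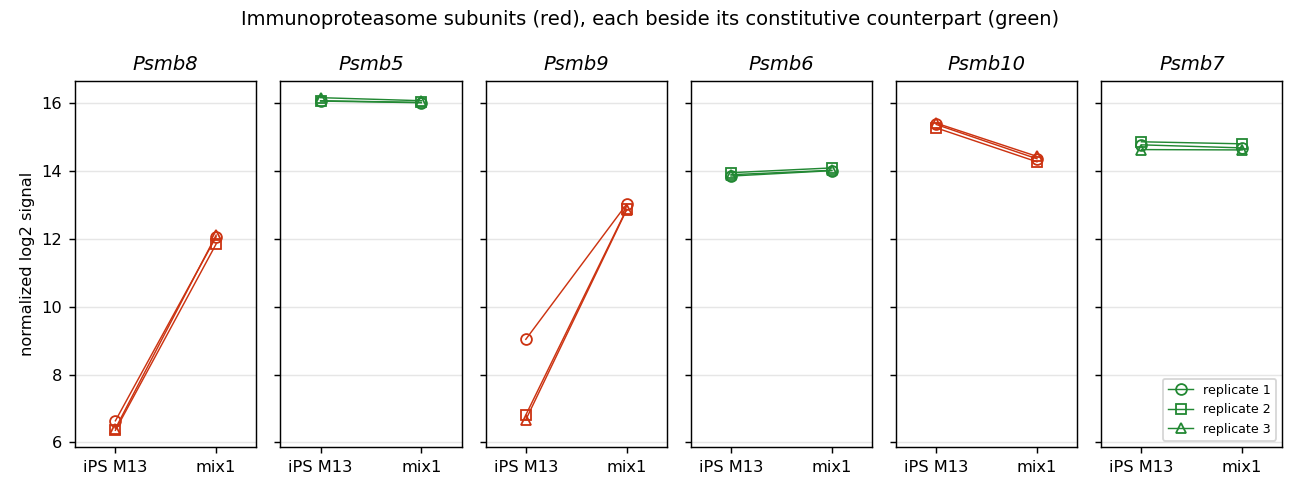
Normalized log2 signal (y axis) of iPS M13 and mix1 on each of 3 arrays, for each immunoproteasome subunit (red) beside its constitutive counterpart (green), with lines joining the channels of an array. Psmb8 and Psmb9 were lower in iPS M13, Psmb10 was higher, and the green lines are nearly flat. Heights are compared within a panel only.

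Of the 4 activator genes, 1 was lower and 3 were not called. Psme2, the beta subunit of the interferon-inducible activator ring, had a log2 signal of 11.36, 11.41 and 11.45 in iPS M13, against 13.90, 13.93 and 13.96 in mix1. The 3 signals of each RNA lay within 0.1 of each other, and the groups were far apart. Psme2 was 5.74-fold lower in iPS M13, a log2 ratio of -2.52 ± 0.01 (SD, n = 3 arrays; limma adjusted p = 7.77e-07). Psme1, the alpha subunit of the same ring, had log2 ratios of -0.72, -0.71 and -0.73, under 2-fold and not called. Psme1 was at 0.05 under median centring, and relative to the median of all genes it stood -0.73 to -0.52 over the settings. Psme3, which forms a nuclear activator ring that interferon-gamma does not induce, had log2 ratios of -0.10, -0.05 and -0.06, and relative to the median of all genes it stood -0.44 to 0.08 over the settings. Psme4, a large single-chain activator, had ratios of 0.06, 0.09 and 0.08 at its brighter probe and a mean of 0.59 at its other probe. Neither was called.

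The alpha ring genes all lay on the positive side. Their mean log2 ratios ran from 0.12 for Psma7 to 1.05 for Psma1, with a median of 0.50, and 1 of 7 was called. Psma1 had a log2 signal of 15.20, 15.08 and 15.23 in iPS M13, against 14.15, 14.03 and 14.19 in mix1. It was 2.07-fold higher in iPS M13 (log2 ratio 1.05 ± 0.001, SD, n = 3 arrays; limma adjusted p = 2.79e-06), just past the threshold. Psma2 had ratios of 0.69, 0.72 and 0.71, and it passed the threshold at 1.48 under median centring and at 1.42 with no within-array normalization. Psma3, Psma4, Psma5 and Psma6 had mean log2 ratios of 0.33, 0.50, 0.63 and 0.41. All 7 alpha genes stood above the median of all genes under all 15 other settings. A probe that the array names Psma3l and that RefSeq now assigns to Psma3 had a mean log2 ratio of 1.008, against 0.33 at the probe named Psma3.

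The 4 structural beta subunits, Psmb1 to Psmb4, had mean log2 ratios of 0.47, -0.06, 0.06 and 0.07, and none was called. The 6 ATPases ran from -0.54 to 0.84 with a median of 0.22, and none was called. The highest of them was Psmc6, with log2 ratios of 0.84, 0.84 and 0.84, and the lowest was Psmc3, with -0.54, -0.54 and -0.54. Psmc6 passed the threshold under median centring (1.55), no within-array normalization (1.49), and the processed signals and the authors' deposited table (1.05 each). Psmc3 was at 0.01 under median centring. Psmc1 and Psmc4 were at -0.04 and 0.02, and Psmc2 and Psmc5 at 0.42 and 0.50. The probes of Psmc6 and Psmc3 differ in GC content, at 36.7% and 55.0%, and with the GC trend removed these genes were at 0.55 and -0.02. Relative to the median of all genes Psmc3 stood -0.70 to -0.02 over the settings.

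Of the 10 non-ATPase subunits of the regulatory particle, 1 was called. Psmd6, a subunit of the lid, had a log2 signal of 12.81, 12.93 and 12.79 in iPS M13, against 11.27, 11.38 and 11.23 in mix1. The groups did not overlap. Psmd6 was 2.92-fold higher in iPS M13 (log2 ratio 1.55 ± 0.01, SD, n = 3 arrays; limma adjusted p = 1.43e-06). Its lowest value over the settings was 1.18, after removal of the GC trend, and its probe had 35.0% GC against a median of 45.0% over the proteasome probes. The other 9 ran from -0.39 for Psmd2, a large scaffold subunit of the base, to 0.42 for Psmd11, a lid subunit. Psmd4, a ubiquitin receptor of the particle, was at -0.08. Psmd3, Psmd7 and Psmd12, all lid subunits, were at 0.35, 0.24 and 0.27. Psmd1, the second scaffold of the base, was at -0.06, and the lid subunits Psmd8 and Psmd13 were at 0.05 and -0.18.

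Of the 3 assembly factors measured under their own names, none was called. Psmd10, known as gankyrin, had log2 ratios of -0.85, -0.77 and -0.81, and Psmd9 had -0.71, -0.65 and -0.68. Psmd5 was at 0.60. All 3 are chaperones that help build the ATPase ring. Psmd10 and Psmd9 were at 0.04 and 0.06 under median centring, while relative to the median of all genes they stood -0.81 to -0.54 and -0.74 to -0.52. Psmg1, Psmg2 and Psmg3, chaperones of the core particle, were on the array under older names and had mean log2 ratios of 0.47, 0.63 and 0.29. Psmd14, the deubiquitinating subunit of the lid, was likewise on the array under an older name and stood at 0.48. Psmb11, the thymus-specific catalytic subunit, and Psma8, the testis-specific alpha subunit, also had probes under older names, and neither was well above background in either RNA. The log2 ratios of Psmb11 were -0.11, 0.06 and 0.22, which at such signals have no direction. No probe was matched to Psmf1 or Psmg4 by the array's names or by the updated names. With these names added, 44 genes were measured, the calls were again 2 higher and 3 lower, and the median was 0.10.

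Where a gene had several probes, they did not always give 1 answer. The widest spread was in Psmd1, at -0.06 and 0.91, and in Psmd7, at 0.24, 0.81 and 1.17. In 5 of the 7 genes with several probes (Psma6, Psmc4, Psmd1, Psmd7 and Psme4) the probe that stood for the gene had the highest GC content of the gene's probes and the lowest ratio. In Psmc6 the probe of higher GC content had the higher ratio, at 0.84 against 0.65, and both Psmd2 probes had the same GC content. Over all genes the log2 ratio fell by 0.43 for each 10% of probe GC. After this trend was removed the median of the proteasome genes was 0.31, against 0.00 for all genes, with 2 genes higher and 3 lower. The part of probe composition in single ratios was not tested.

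The genes that work beside the immunoproteasome were lower in iPS M13 more often than not. Of 15 genes for antigen processing and MHC class I loading, 12 were lower, none was higher, and the median was -1.46. Tap1, Tap2, Tapbpl and RT1-A3, all among the lower genes, passed the filter on dim probes through mix1 alone. They could hardly be called higher. Tap2 and Tap1, the peptide transporter, had mean log2 ratios of -3.98 and -3.63, with a signal well above background in iPS M13 on 1 of 3 arrays for each. The MHC class I genes RT1-A2 and RT1-CE5 were at -3.80 and -2.75. Canx, a general chaperone of the endoplasmic reticulum, was at 0.07, and Tpp2, a cytosolic peptidase, was at 0.82. Neither was called.

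Of 18 genes of the interferon response, 16 were lower, none was higher, and the median was -2.20. Irf2, Usp18, Gbp2, Oas1a, Ifit2, Ifi47, Igtp and Irgm passed the filter on dim probes through mix1 alone. Genes kept this way could hardly be called higher, and all of them but Irf2 were called lower. Gbp2 and Ifit2, which are induced by interferons, were at -4.83 and -4.67, each well above background in iPS M13 on 2 of 3 arrays. Irgm was at least 11.2-fold lower and Usp18 at least 9.16-fold lower, with no iPS M13 signal well above background. Among the signalling genes, Irf1 was at -1.45, Ifngr1, a chain of the interferon-gamma receptor, at -2.86, and Jak1 at -2.24. Leukocyte marker levels moved with both lists, as given above.

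Of 10 genes known to control the transcription of proteasome genes, 4 were lower and none was higher. Nfe2l1, which drives the proteasome genes when the proteasome is inhibited, was at -1.88, Ngly1, the glycanase that processes it, at -1.49, Nfe2l2 at -1.36 and Keap1 at -1.002. Of 13 proteins that bind or serve the proteasome, 2 were higher. Uchl5, a deubiquitinase of the regulatory particle, was at 1.73, and Adrm1, the ubiquitin receptor that holds Uchl5 there, was at 1.11. Pomp, the chaperone that helps close the core particle, was at -0.42 and not called. These lists are read against the same background of 18.8% called higher and 25.4% called lower.

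**Figure D4:**
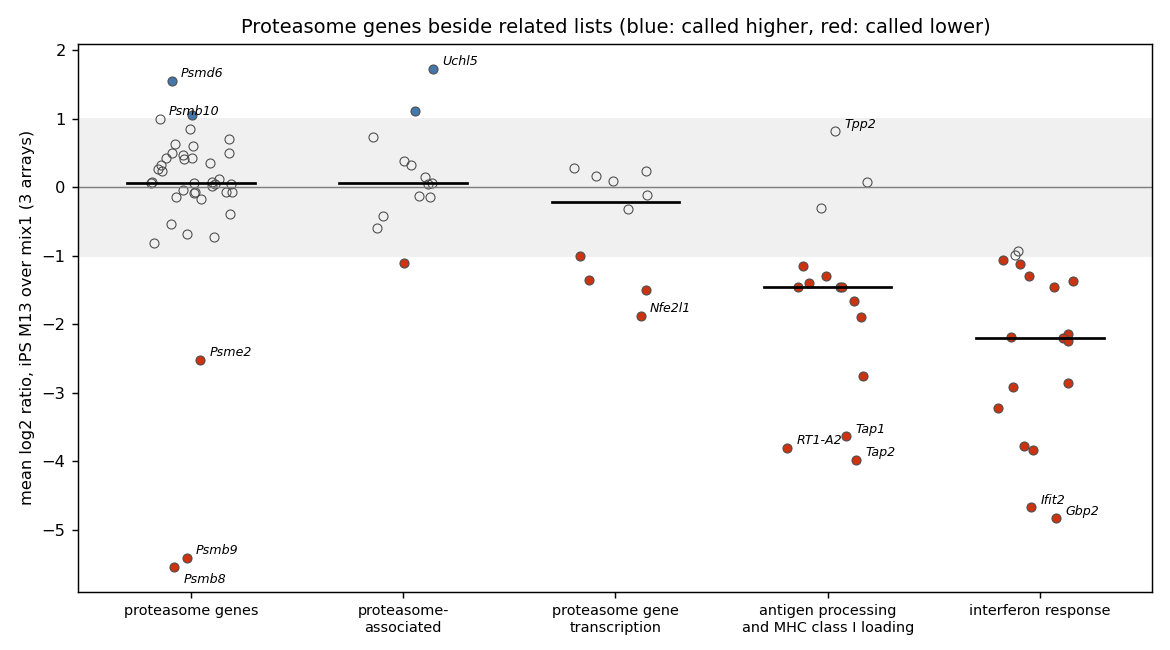
Log2 ratio of iPS M13 over mix1, as the mean of 3 arrays (y axis), for the 40 proteasome genes and 4 related lists, with each list's median as a bar and genes under 2-fold in the grey band. Most proteasome genes lie in the band, with Psme2 below it at -2.52 and Psmb9 and Psmb8 below the lowest gene of every other list (-4.83, in the interferon list).

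Psmb8, Psmb9 and Psme2 were called lower in iPS M13 under every alternative that measured them, between -7.29 and -4.95, -6.12 and -4.66, and -2.54 and -1.67. Psmd6 and Psma1 were called higher under each, between 1.18 and 2.40 and between 1.05 and 1.71.

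**Figure D5:**
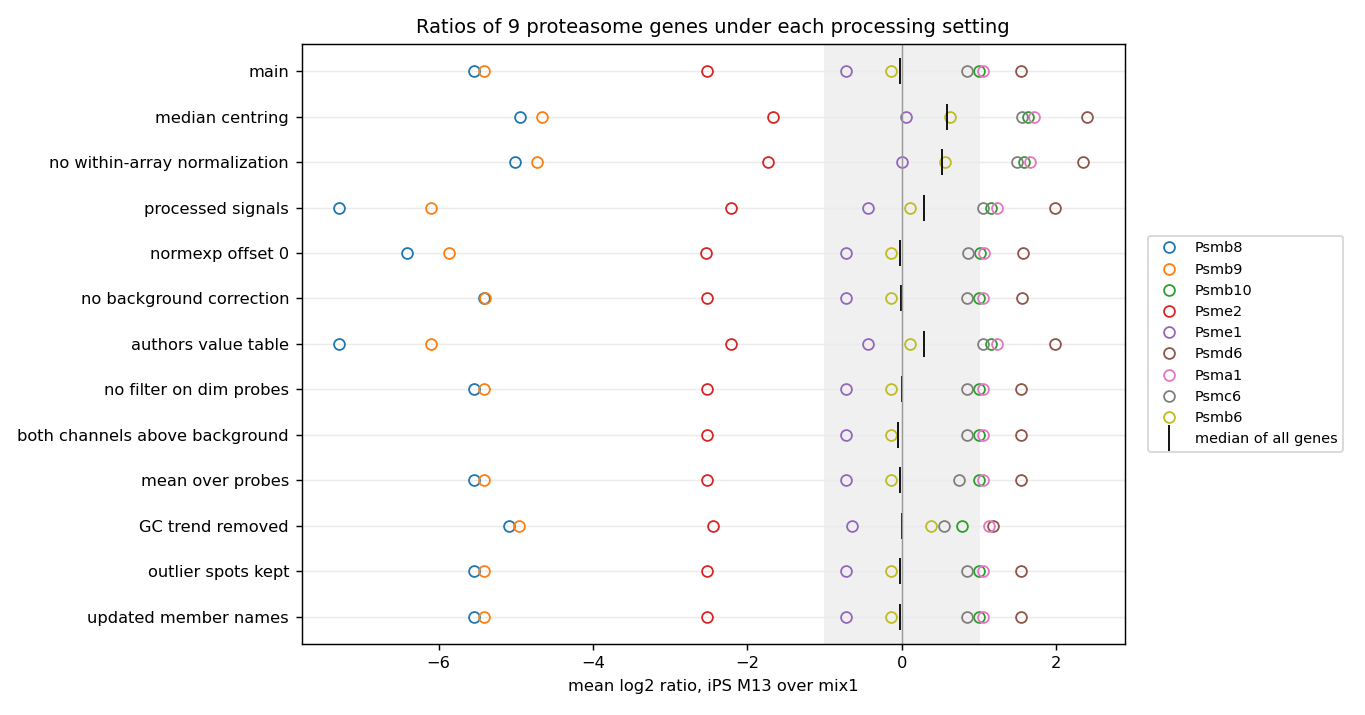
Log2 ratio of iPS M13 over mix1 (mean of 3 arrays, x axis) for 9 proteasome genes under the main processing and 12 other settings (y axis), with the median of all genes as a black tick. Psmb8, Psmb9 and Psme2 stay left of the grey 2-fold band wherever measured, while Psmb10 and Psmc6 cross its right edge when the median of all genes shifts right. Psmb10 also crosses it, at 1.011, with normexp offset 0, where that median hardly moves.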

How the data were processed

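The members, gene lists and alternatives were chosen with earlier results of these data known. Spot intensity values were deposited as the scanner software (Agilent Feature Extraction 9.5.3.1, per the file headers) gave them, with local backgrounds. Deposited log10 ratios are Cy5 over Cy3, per the file headers. The value table deposited by the authors holds log2 ratios of unstated scale and direction. Its columns had slopes of -3.32 against the log10 ratios, so it was read as Cy3 over Cy5. Its column medians were -0.04, -0.03 and -0.03. The named genes had the same log2 ratios in it as in the scanner's processed signals, so its centring is that of the scanner software.

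Here, mean signals were corrected by normexp (offset 50) and loess within each array in limma 3.58.1 (R 4.3.3, data.table, version 1.17.8). Spots flagged as outliers (205, 263 and 192 on the 3 arrays) were dropped. A probe was kept if 1 channel was well above background on all 3 arrays (24177 of 41012 probes), and the brightest kept probe stood for a gene. A gene kept through 1 channel alone could hardly be called higher in the other. Mean log2 ratios were tested against 0 with lmFit and eBayes, with Benjamini-Hochberg adjustment over 20343 genes. The threshold was an adjusted p under 0.05 and a log2 ratio of at least 1 in size. Signals per channel are on the log2 scale after loess and Aquantile scaling. All 3 arrays lay on 1 slide with 1 scan date, so no batch could be compared, and their number limits the precision. Correlations between arrays were 0.997 to 0.998. On simulated data 49 of 50 probes changed by -1.5 on the log2 scale were recovered, and 50 of 50 for each of the other changes of -3, 1.5 and 3, among 24177 probes. The simulated arrays had few changed probes and no dye imbalance, unlike these arrays, so recovery where dye balance matters was not tested. Negative controls had medians of 76.0 to 77.4 in Cy3 and 60.9 to 63.7 in Cy5, against 272 to 291 and 228 to 254 for all spots.

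Per-array values are given for Psmb5 to Psmb11, Psme1 to Psme4, called members and the 5 highest and 5 lowest measured in both RNAs. Called genes of other lists are named by size, up to 4 per list, and the further ones named were chosen after their values were seen. Some genes of these lists are not reported here. Tables were made with pandas 2.3.3 and numpy 2.4.6 under Python 3.11.15, and plots with matplotlib 3.10.9.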

Additional observations from a re-analysis of the deposited data

How the results depend on the processing

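The count of proteasome genes higher in iPS M13 (2) was 12 with median centring, 10 with no within-array normalization, and 4 with the scanner's processed signals and with the authors' deposited value table. The count lower in iPS M13 (3) was 1 with both channels required above background, which leaves out Psmb8 and Psmb9 by its construction. The median log2 ratio (0.07) was 0.70 with median centring, 0.64 with no within-array normalization, 0.27 with the processed signals and with the authors' table, 0.083 with normexp offset 0, 0.14 with the mean over probes, 0.31 with the GC trend removed and 0.10 with updated names. The immunoproteasome minus constitutive difference (-3.31) was -4.28 with the processed signals and with the authors' table, and -3.76 with normexp offset 0. Requiring both channels above background gave no such difference. Without 1 replicate the ranges were 2 to 3 genes higher, 3 to 3 lower, a median of 0.06 to 0.07 and a difference of -3.56 to -3.15. Psmb10 was called higher with normexp offset 0 (1.011) and without replicate 3 (1.003), which made up the third gene in each. Genes called in the 4 related lists (35 of 56) stayed between 24 and 37. The 24 were of only 44 genes measured when both channels were required above background, and with no filter on dim probes 36 of 60 were called.

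Signs turned for Psmb6 (0.62 with median centring, 0.56 with no within-array normalization, 0.11 with the processed signals and the authors' table, 0.38 with GC correction) and for Psme3 (0.66, 0.61 and 0.11 under the first 4 of these). With median centring they also turned for Psme1 (0.055), Psmd10 (0.041), Psmd9 (0.063) and Psmc3 (0.014), and for Psmd9 with no within-array normalization (0.006). The cause was not tested. Of 253 values of 17 named genes under 15 other settings, 227 kept both direction and side of the threshold, 12 passed it newly and 14 changed sign. These are not separate checks, since some settings repeat others. The authors' table gave the named genes the ratios of the processed signals. Keeping outlier spots, using no filter on dim probes and updating names left every one of these ratios as in the main processing. No paired analysis was possible because the arrays form 1 group. The slide as a block was not run because all arrays share 1 slide. A signal near background limits Psmb8 and Psmb9 to bounds in iPS M13.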
